A study of Mus musculus with 6 samples.

Results

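The genes described here build the DNA replication machinery and supply its nucleotides. They are 44 listed genes in 10 roles: the replicative helicase, origin recognition and licensing, helicase activation, polymerases and primase, the sliding clamp and its loader, single-strand binding, lagging strand maturation, nucleotide supply, cyclin E and chromatin assembly. A member was read through every probe set that the platform annotation assigns to that gene alone. By this rule 42 of the 44 were measured on the MOE430A array design, by 75 probe sets, and 15 on MOE430B, by 18. Together 43 members were measured among 18194 genes in all. Gins2 was measured on MOE430B only, and no probe set of either design named Chaf1a alone.

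The samples were RNA of 10T1/2, a line of mouse embryonic fibroblasts, grown in DMEM with 10% fetal bovine serum and taken at 80% confluency. There were 3 samples, numbered 1, 4 and 5 in the labels, with no treatment and no second condition, so they form 1 group. Each was hybridised to 1 MOE430A and 1 MOE430B array, and the submitters planned to subtract genes shared with stem cells from stem cell profiles. Nothing says that they came from separate cultures, so differences among them may be technical, and with 1 group no test between conditions exists.

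DNA replication starts from origins that are prepared in G1 phase, when the origin recognition complex, Cdc6 and Cdt1 load the ring of MCM proteins onto DNA. In S phase the kinase Cdc7 and the loading of Cdc45 and the GINS complex turn that ring into the active helicase, and cyclin E with its kinase drives entry into this phase. Primase and the polymerases then copy both strands, held to DNA by the clamp PCNA, while ribonucleotide reductase, thymidine kinase and related enzymes make the deoxynucleotides. Many of these genes are transcribed late in G1 and in S phase under the E2F factors, so their summed RNA in a culture depends on how many cells are in those phases.

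Signals are linear intensities in arbitrary units. They are not comparable between genes or between the designs, because probe sets differ in how well they bind, so every comparison is of 1 probe set across samples. The background limit of an array was the 95th percentile over probe sets of genes known from distant tissues such as liver or retina. In samples 1, 4 and 5 it was 1201.9, 1374.9 and 969.4 on MOE430A, and 4039.9, 3488.7 and 4531.5 on MOE430B, where it rests on only 13 probe sets. A gene was called detected where a probe set lay above the limit on all 3 arrays of a design. Values are those of 1 probe set per gene, the detected one with the highest mean log2 signal or, failing that, the brightest.

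Samples 1 and 5 stood apart from the others in measures outside the replication genes. On MOE430A the ratio of 3' to 5' signal was highest in sample 1 for Gapdh, at 24.7 against 15.0 and 10.6 in samples 4 and 5. So it was for Actb, at 17.5 against 9.57 and 8.68, and for the PheX control at 41.6 against 18.0 and 15.8. It was not highest there for the other controls ThrX, at 76.5, 70.4 and 81.6 in samples 1, 4 and 5, DapX, at 5.42, 5.46 and 3.40, and TrpnX, at 16.0, 18.5 and 13.8. For LysX it was 9.77, 9.59 and 5.68. On MOE430B the ratio was highest in sample 1 for Gapdh, Actb and PheX, and also for TrpnX, at 14.7, 12.2 and 12.7. It was not highest there for ThrX, DapX and LysX. Fibroblast markers were detected for 9 of 10 genes, and their summed signal, of which Col1a2 gives the largest share, was 424486, 457806 and 188044 in samples 1, 4 and 5. Sample 1 deviated by a median of 0.93 (log2) over these 10 genes, with 4 of them 2-fold or more higher there and 1 lower. Sample 4 deviated by much the same, 0.96, with 4 higher and 0 lower. Sample 5 deviated by -1.73, with 0 higher and 6 lower. On MOE430A 0 of 6 epithelial, 0 of 5 endothelial and 0 of 5 muscle markers were detected, and 1 of 5 leukocyte markers was, Cd14. On MOE430B the epithelial marker Epcam was detected, at 31382, 139544 and 29693, whereas its MOE430A probe set read 47.4, 39.1 and 39.5. The arrays of samples 1 and 4 on MOE430A were processed on 1 fluidics station and that of sample 5 on another. On MOE430B the arrays of samples 1, 4 and 5 all shared 1 station.

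Replication genes were lowest in sample 1 almost throughout. Without any filter on low values, sample 1 gave the lowest of the 3 signals for 38 of 42 members (90.5%) on MOE430A, against 30.4% of all 12394 genes. The exceptions were Orc2, Fen1, Tyms and Ccne1. Sample 1 was also the lowest in 63 of the 75 probe sets of the members, and samples 4 and 5 in 6 each. On MOE430A the 3' to 5' ratios of Gapdh, Actb and PheX moved with this difference and those of ThrX, DapX and TrpnX did not. The part of RNA quality in this difference was not tested. In such bulk RNA, fewer replicating cells and less RNA per cell cannot be told apart.

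On MOE430A 13 of 42 members were detected (31.0%), against 29.5% of all genes, so detection on every array was about as frequent as in the background. On either design it was 14 of 43 (32.6%), against 25.2%. That reading turns with the rule: above the limit on 2 of 3 arrays were 21 members (50.0%, against 36.8% of all genes), and with most probe sets of a gene required, 3 passed (7.14%, against 17.3%). The 13 were Mcm2, Mcm4, Mcm7, Pcna, Rfc1, Rfc2, Rfc5, Rpa1, Prim1, Cdt1, Fen1, Rrm1 and Rrm2. The samples differed more than this count shows. In sample 1 the probe sets of those same 13 members were above the limit (36.9% of all genes), in sample 4 those of 21 members (33.7%), and in sample 5 those of 34 (41.8%). The 8 members above it in samples 4 and 5 but not 1 were Mcm6, Mcm10, Pola2, Pold1, Pold2, Gmnn, Lig1 and Tk1. The 13 above it in sample 5 only were Mcm3, Mcm5, Rpa2, Rpa3, Prim2, Cdc6, Cdc7, Cdc45, Orc2, Orc6, Gins1, Dut and Chaf1b, and sample 5 had the lowest limit of the 3. The 8 above it in no sample were Rfc3, Rfc4, Pola1, Pole, Orc1, Tyms, Ccne1 and Ccne2.

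**Figure D1:**
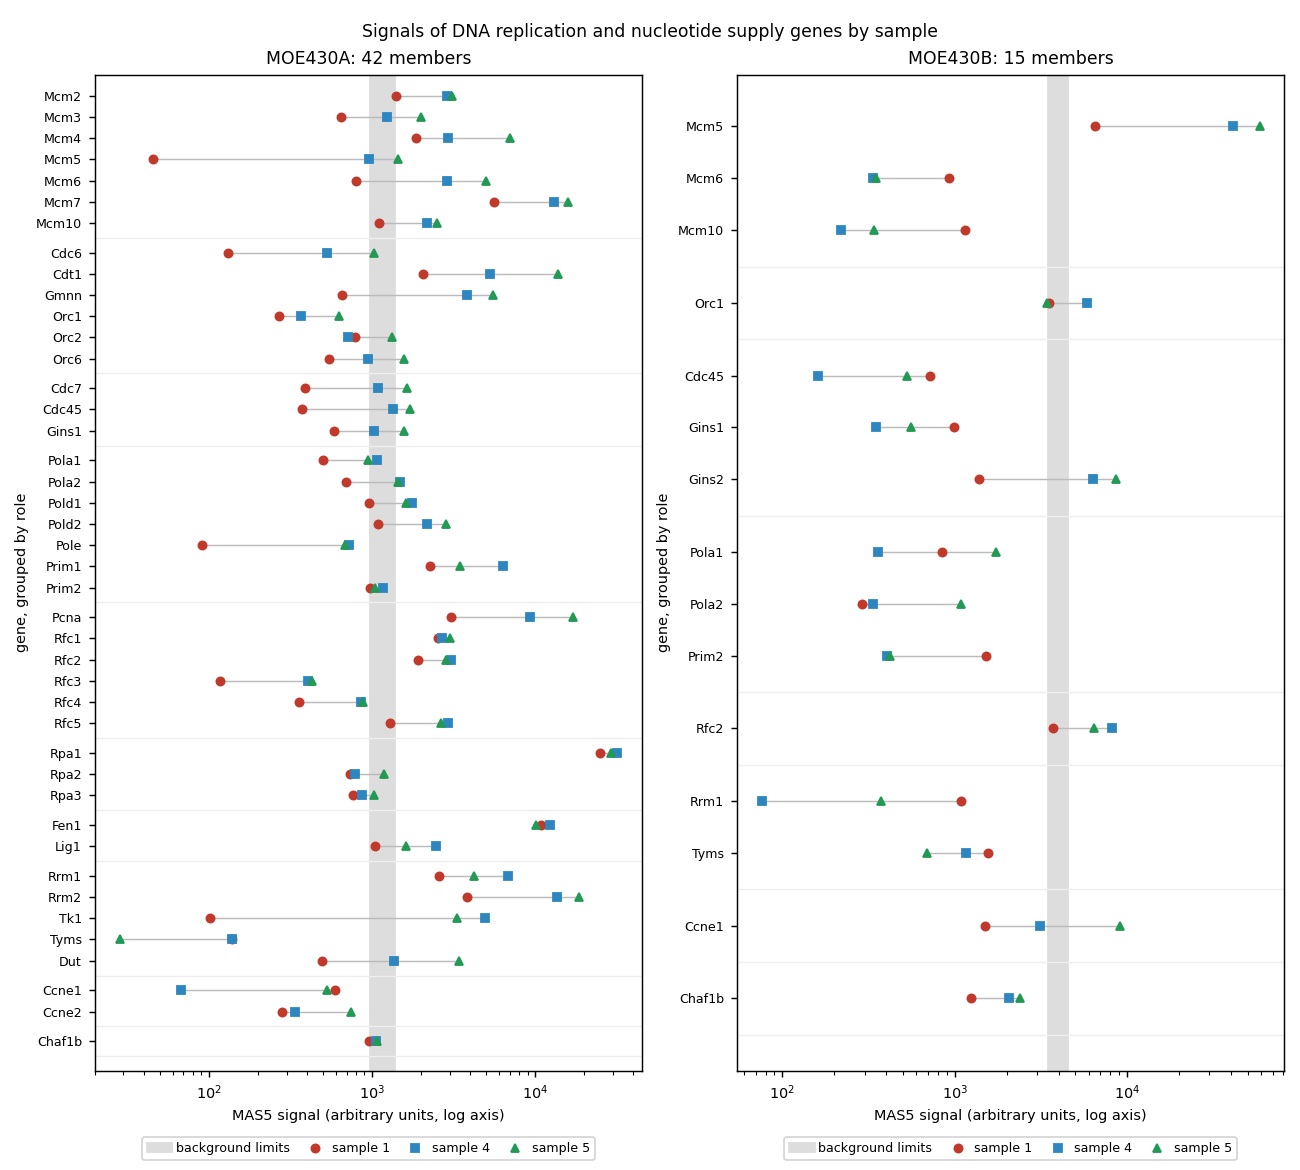
MAS5 signal of each measured member in samples 1 (circles), 4 (squares) and 5 (triangles) on a log axis, with MOE430A on the left and MOE430B on the right, genes grouped by role; the grey band spans the background limits of the 3 arrays of a design. On MOE430A the circle lies at the left end for 38 of 42 members, and on MOE430B, where most members lie below the band, for 6 of 15; the Tyms points of samples 1 and 4 coincide on MOE430A, at 139 each.

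To size the difference, genes were kept where the mean log2 signal over the samples exceeded that of the limits, signals below a limit were raised to it, and each sample was set against the mean log2 of the other 2. A total of 21 members were kept on MOE430A (37.2% of all genes). Tk1 lay just inside that threshold, with a geometric mean of 1183 against 1170, and Mcm3 just outside, at 1169. Sample 1 lay 2-fold or more below the others for 13 of the 21, against 5.47% of 4605 genes kept, and 2-fold or more above them for 0, against 5.78%. It lay below the mean log2 of the other 2 at any size for 21 of 21 (49.6% of all genes kept). Fen1 is among these, although its lowest signal was that of sample 5. The median deviation of the kept members was -1.05 on the log2 scale, a 2.07-fold difference, and that of all genes kept was 0.01. Because members were kept by their mean, those near the limit had to be high somewhere, so these counts describe the kept members only. For 8 of them the signal of sample 1 lay below its limit. In 7 of these the fold is therefore a lower bound, and in Dut it is no bound, since sample 4 also lay below its limit.

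**Figure D2:**
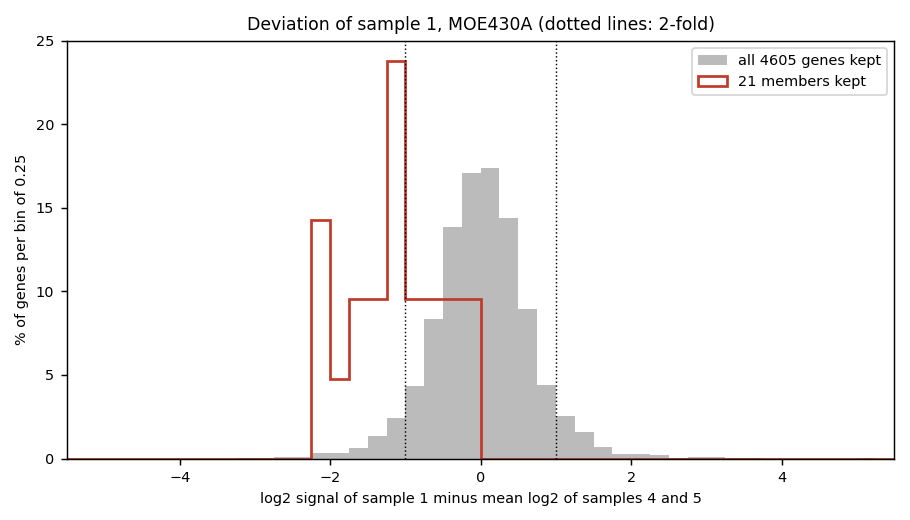
Distribution of log2 signal in sample 1 minus mean log2 signal in samples 4 and 5 on MOE430A, as percent of genes per bin of 0.25, for all 4605 genes kept (grey) and the 21 members kept (red outline); dotted lines mark 2-fold. All genes centre on a median of 0.01 and the members on -1.05, with 13 members at or beyond the left dotted line and 0 beyond the right one.

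By the probe set chosen for each, the helicase genes on MOE430A all read lowest in sample 1 and highest in sample 5. The MCM2-7 proteins form the ring that unwinds DNA, and Mcm10 helps to activate it. Mcm7 read 5583, 13030 and 15978 in samples 1, 4 and 5, so that sample 1 lay 2.58-fold below the others. Mcm4 read 1874, 2919 and 7040, with sample 1 2.42-fold lower. Mcm2 read 1407, 2876 and 3106, with sample 1 2.12-fold lower. In these 3 detected genes the signal of sample 4 lay close to that of sample 5 for Mcm2 and Mcm7 but nearer to sample 1 for Mcm4. The other Mcm4 probe set read 1200, 3361 and 4505, with sample 1 just below its limit and sample 4 nearer to sample 5. That of Mcm2 read 280, 1219 and 1190, lowest in sample 1 and highest in sample 4. Mcm6 read 795, 2868 and 5032, which places sample 1 below its limit and at least 3.16-fold lower. Mcm10 read 1111, 2170 and 2499, with sample 1 at least 1.94-fold lower. Its other probe set read 325, 231 and 223, below every limit and highest in sample 1. Mcm3 read 643, 1245 and 1999, above the limit in sample 5 only. Other Mcm3 probe sets, below every limit, read 603, 311 and 513 and 322, 258 and 543, lowest in sample 4. The remaining ones read 127, 134 and 893 and 663, 1115 and 2154, lowest in sample 1. Mcm5, the remaining gene of the ring, was read on both designs.

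Mcm5 had the largest difference of sample 1 among members with a probe set above the limit on all 3 arrays of a design. Its MOE430B probe set read 6466, 40837 and 58492, which put sample 1 7.56-fold below the others (-2.92 on the log2 scale). This is an _x_at probe set, a kind that may also bind other transcripts. Without _s_at and _x_at probe sets, 0 of 11 members measured on MOE430B were detected, against 8.2% of all genes. On MOE430B 1 of 4 members kept, Mcm5 itself, lay 2-fold or more lower in sample 1, against 5.19% of the 1637 genes kept. Its MOE430A probe set read 45.6, 959 and 1436 and passed the limit in sample 5 only. A further MOE430B probe set read 208, 1016 and 783, all below the limit. All 3 probe sets of Mcm5 were thus lowest in sample 1, on arrays scaled separately.

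The upstream sequences of the members were searched for the E2F words TTTCGCGC, TTTGGCGC, TTTCCCGC and TTTGCCGC on both strands, overlaps allowed, in the 250 bases before each annotated start. The RefSeq table (GRCm38.p6) held 43 such windows of 36 members. An E2F word was present in 7 of them (16.3%), each of a different gene, against 1.86% of 32851 windows of all genes. A 30-base stretch of each is printed, so that the matches can be read beside the genes' values, with the E2F words in capitals, on the strand of the gene from 5′ to 3′.
Mcm5: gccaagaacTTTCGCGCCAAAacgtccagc
Mcm6: gcgtatgctTTTGGCGCGAAAagtgcgtgc
Mcm7: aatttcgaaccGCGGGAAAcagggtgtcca
Cdc6: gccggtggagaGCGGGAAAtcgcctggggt
Orc1: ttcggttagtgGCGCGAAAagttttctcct
Pola1: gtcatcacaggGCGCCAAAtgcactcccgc
Rfc3: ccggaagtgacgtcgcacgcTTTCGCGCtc
These stretches lie at chr8:75109347-75109376 (plus strand) for Mcm5, chr1:128359795-128359824 (minus) for Mcm6, chr5:138172030-138172059 (minus) for Mcm7 and chr11:98908002-98908031 (plus) for Cdc6. Those of Orc1, Pola1 and Rfc3 lie at chr4:108579416-108579445 (plus), chrX:93632275-93632304 (minus) and chr5:151651209-151651238 (minus).

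In Mcm5 and Mcm6 the capitals run over 12 bases because words on opposite strands overlap. The 12-base word TTTCGCGCCAAA, or its reverse complement TTTGGCGCGAAA, was found in 4 of the 32851 windows (0.0122%), those of Mcm5, Mcm6, Msh3 and Mycn. It was singled out after their values were seen. The Mcm6 window at chr1:128359706-128359955 (minus strand, GRCm38.p6) holds 3 words, the last of them 47 to 40 bases before the start, and overlaps no other gene. It is printed whole, with the E2F words in capitals.
Mcm6: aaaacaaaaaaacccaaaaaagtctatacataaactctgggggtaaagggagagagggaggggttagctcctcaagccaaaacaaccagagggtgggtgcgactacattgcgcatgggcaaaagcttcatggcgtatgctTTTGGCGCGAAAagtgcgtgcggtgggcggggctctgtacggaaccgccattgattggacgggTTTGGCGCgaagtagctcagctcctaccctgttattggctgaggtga
Of 12 members with a window that were kept and lay 2-fold or more lower in sample 1 on either design, 3 held an E2F word (Mcm5, Mcm6 and Mcm7). Of the 8 other members kept on either design with a window, 1 did, Orc1. These counts are too small to relate the words to the change. A match is a run of letters and not a measured binding site, and no match says only that these letters are not in this window.

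Among the origin recognition and licensing genes, Cdt1 and its inhibitor had large sample differences, and the recognition complex passed the limit in 1 sample at most. Cdt1, which loads the MCM ring, read 2053, 5273 and 13724 in samples 1, 4 and 5. Sample 1 lay 4.14-fold below the others and sample 5 4.17-fold above them, so the 3 samples were spread widely with sample 4 between. Gmnn, which encodes geminin, the inhibitor of Cdt1, read 653, 3818 and 5553, with sample 1 below its limit and at least 3.83-fold lower. The inhibitor and its target thus had the same order of samples.

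Cdc6, the ATPase that works with Cdt1, read 132, 528 and 1027 and passed the limit in sample 5 only. The recognition complex subunit Orc6 did so too, at 545, 951 and 1576. Orc2, another subunit, read 788, 714 and 1331 and was the only licensing gene with sample 4 lowest. Its 2 other probe sets, at 270, 648 and 650 and at 334, 821 and 626, were lowest in sample 1. Orc1 read 269, 369 and 626 on MOE430A, above the limit nowhere, while its MOE430B probe set read 3534, 5809 and 3419 and was above it in sample 4 only. Neither design therefore gives an order of samples for Orc1.

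The genes that activate the loaded helicase were above the limit in sample 5 only on MOE430A, while Gins2 passed it in samples 4 and 5 on MOE430B. Cdc45, a subunit of the active helicase, read 375, 1346 and 1703 on MOE430A. Cdc7, the kinase of origin firing, read 391, 1089 and 1648. Gins1, of the GINS complex, read 587, 1029 and 1580. The 3 genes shared 1 order, with sample 1 lowest, sample 5 highest and only sample 5 above the limit. Gins2 on MOE430B read 1381, 6310 and 8655, above the limit in samples 4 and 5, with sample 1 at least 1.83-fold lower. Its second probe set read 837, 741 and 2791, all below the limit.

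The polymerase and primase genes were lowest in sample 1 for 7 of 7. Prim1, the catalytic subunit of primase, read 2283, 6370 and 3460, with sample 1 2.06-fold below the others. Sample 4 was the highest, 2.27-fold above the others. Pold2, a subunit of polymerase delta, read 1092, 2167 and 2845, with sample 1 at least 2.07-fold lower. Pold1, its catalytic subunit, read 959, 1769 and 1622, with sample 1 at least 1.41-fold lower. Both delta subunits were thus above the limit in samples 4 and 5 and below it in sample 1.

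Pola2, a subunit of polymerase alpha, read 695, 1485 and 1448. The catalytic subunit gene Pola1, at 499, 1068 and 949, stayed below the limits. So did Pole, of polymerase epsilon, at 90.6, 725 and 687. Prim2, the large subunit of primase, read 978, 1172 and 1048, a narrow range that straddled the limits. On MOE430B the probe sets of Pola1, Pola2 and Prim2 all lay below the limit, so they give no second reading.

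Pcna, which encodes the sliding clamp, differed far more between samples than the genes of its loader. It read 3033, 9244 and 16979, with sample 1 4.13-fold below the others and sample 5 3.21-fold above. Of the loader subunits, Rfc5 read 1297, 2924 and 2653, with sample 1 2.15-fold lower. Rfc2 read 1928, 3043 and 2826, with sample 1 1.52-fold lower. Rfc1, the large subunit, read 2529, 2691 and 2994, a 1.12-fold difference, the smallest of the loader. The 2 dimmer subunits, Rfc3 at 118, 406 and 429 and Rfc4 at 358, 851 and 885, were below the limit everywhere and lowest in sample 1. For Rfc2 the MOE430B probe set read 3728, 8115 and 6386, in the same order as on MOE430A and with sample 1 at least 1.78-fold lower.

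The single-strand binding genes differed little. Rpa1, the large subunit of the protein that coats single-stranded DNA, read 24913, 31866 and 29268, with sample 1 1.23-fold lower. Its other probe set read 880, 1467 and 1923, below the limit in sample 1. Rpa2 at 730, 783 and 1186 and Rpa3 at 765, 874 and 1033 passed the limit in sample 5 only. All 3 subunits were lowest in sample 1, by small amounts.

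The flap nuclease gene Fen1, which trims Okazaki fragments, was the detected member with the smallest deviation of sample 1. Its brightest probe set read 10915, 12311 and 10101, a 1.02-fold difference, with sample 5 lowest. Its other probe set read 49.8, 315 and 496, lowest in sample 1 and below the limit everywhere. The 2 probe sets disagree on the order of samples, and the brighter is an _x_at probe set, a kind that may also bind other transcripts. Lig1, the ligase that joins the fragments, read 1044, 2457 and 1626, with sample 1 at least 1.66-fold lower and sample 4 highest.

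In nucleotide supply both subunits of ribonucleotide reductase were detected and lowest in sample 1. Rrm2, the small subunit made in S phase, read 3826, 13520 and 18499, with sample 1 4.13-fold lower. Rrm1, the large subunit, read 2589, 6847 and 4201, with sample 1 2.07-fold lower and sample 4 2.08-fold above the others. The subunits shared their lowest sample and differed in their highest one. Tk1, cytosolic thymidine kinase, read 102, 4898 and 3303. In sample 1 it lay below the limit and at least 3.35-fold lower. Taken without the limit the difference was 39.3-fold, but it rests on a signal of 102 that cannot be told from background.

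Dut, which encodes the dUTPase that keeps uracil out of DNA, read 495, 1359 and 3419 and passed the limit in sample 5, by at least 2.66-fold above the others. Tyms, thymidylate synthase, read 139, 139 and 28.4 from its brightest probe set and was below the limit in every sample and on both designs. No order of samples can be read for Tyms. The Rrm2 window at chr12:24708004-24708253 (plus strand, GRCm38.p6) is shown because Rrm2 had 1 of the largest folds and no E2F word. It holds 1 CCAAT word, in capitals, 50 to 46 bases before the start.
Rrm2: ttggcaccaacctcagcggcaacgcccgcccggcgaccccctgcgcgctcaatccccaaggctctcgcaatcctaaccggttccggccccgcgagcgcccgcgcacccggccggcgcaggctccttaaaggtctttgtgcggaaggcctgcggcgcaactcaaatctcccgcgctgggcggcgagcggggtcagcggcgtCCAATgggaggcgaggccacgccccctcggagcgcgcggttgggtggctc
The word CCAAT, on either strand, was in 23 of 43 member windows (53.5%) against 33.8% of all windows, and GGGCGG in 26 (60.5%) against 32.7%. Of the 12 members with a window that lay 2-fold or more lower in sample 1 on either design, 9 held CCAAT. Of the 8 other members kept with a window, 4 did. These counts, too, are too small to relate the word to the change.

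Cyclin E and chromatin assembly genes passed the limit in sample 5 only, or nowhere. Ccne1 read 590, 67.7 and 534 on MOE430A, below every limit, while its MOE430B probe set read 1492, 3104 and 9105 and passed the limit in sample 5. Ccne2 read 281, 338 and 747. Chaf1b, a subunit of the chaperone that places histones behind the fork, read 961, 1056 and 1079, close to the limits and nearly level across samples. These genes give no sample difference on MOE430A that stands above background.

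The order of samples 4 and 5 was counted by role, with many of the values below the limit. Sample 5 had the highest signal for 27 of 42 members (29.0% of all genes), sample 4 for 13 (31.6%) and sample 1 for 2 (39.4%). The helicase, licensing and activation genes were highest in sample 5 for 16 of 16, whereas 6 of 7 polymerase and primase genes were highest in sample 4, with Pold2 the exception. Over all genes, sample 5 was above sample 4 in 44.1%. Only 7 of the 16 were above the limit in both samples (Mcm2, Mcm4, Mcm6, Mcm7, Mcm10, Cdt1 and Gmnn), all 7 higher in sample 5, and only 4 of the 7 polymerase and primase genes, 3 of them higher in sample 4. Of these 3, Pola2 differed by 1.03-fold, Pold1 by 1.09-fold and Prim1 by 1.84-fold. The other Pold1 probe set, at 694, 1581 and 1776 in samples 1, 4 and 5, was higher in sample 5. On MOE430B the Orc1 probe set was higher in sample 4, against its dim MOE430A probe set. This split by role was counted after the values were seen, and its difference between roles was not tested. With _s_at and _x_at probe sets, a kind prone to cross-matching, left out it was 14 of 16 and 6 of 7. Mcm2 was then highest in sample 4 and Mcm3, at 603, 311 and 513, in sample 1. With all probe sets of a gene averaged the split was 16 of 16 and 5 of 7.

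Many of these differences were small. Between samples 4 and 5, 3 of 21 kept members were 2-fold or more higher in sample 5 (5.71% of all genes kept): Mcm4 by 2.41-fold, Cdt1 by 2.60-fold and Dut by at least 2.49-fold. The other Mcm4 probe set read 3361 and 4505 in samples 4 and 5, less than 2-fold apart. None of the 21 was 2-fold or more lower (6.80%), and 12 were higher at any size (44.1%). Among the polymerase genes, by the probe set chosen for each, Pold1 differed by 1.09-fold and Prim1 by 1.84-fold, both higher in sample 4. Set against the mean of both other samples on MOE430A, 3 members were 2-fold or more higher in sample 4, against 2.45% of all genes kept (Prim1, Rrm1 and Tk1). In sample 5 there were 7, against 6.45% (Mcm4, Mcm6, Pcna, Cdt1, Gmnn, Rrm2 and Dut). None was 2-fold or more lower in sample 4 (1.78%) or in sample 5 (7.21%). On MOE430B Mcm5 was the 1 of 4 kept members 2-fold or more higher in sample 4 (2.38%), by 2.10-fold, and also the 1 in sample 5 (6.41%), by 3.60-fold. Its signals in samples 4 and 5 were 1.43-fold apart, and both counts were 0 with sample 1 left out. The fibroblast markers went the other way in sample 5, where they were lowest for 8 of 10 genes with a median deviation of -1.73. The MOE430A array of sample 5 also ran on another fluidics station, whereas the MOE430B arrays all shared 1. The part of either in the sample 5 values was not tested.

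**Figure D3:**
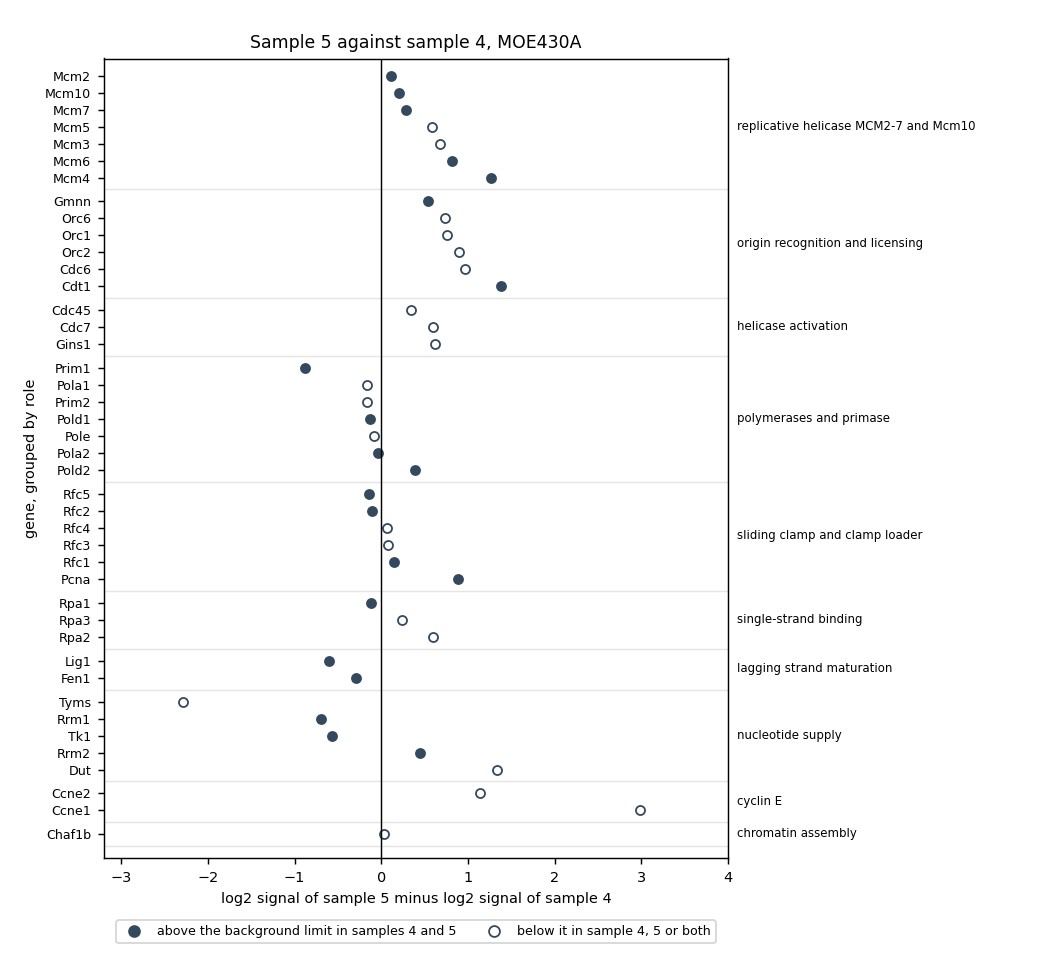
Log2 signal of sample 5 minus log2 signal of sample 4 on MOE430A for 42 members grouped by role, with signals as deposited; filled points were above the background limit in both samples. Helicase, licensing and activation genes lie to the right of 0 for 16 of 16, polymerase and primase genes to the left for 6 of 7, and most points on the left lie close to 0.

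Detection of these genes rested on single probe sets. Of the 13 members detected on MOE430A, 10 had several probe sets, and each of the 10 was detected by 1 of them only. Pcna, Rfc2 and Rfc5 have a sole probe set. For 5 of the 13 the detected probe set ended in _s_at or _x_at: Mcm2, Mcm4, Mcm7, Fen1 and Rrm2. Among 23 members with several probe sets, 13 had sample 1 lowest in every one (56.5%), against 9.48% of the 4958 such genes in all, and 10 did not.

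Rrm2 shows both sides. Its other probe sets read 80.6, 1266 and 1738 and 587, 1865 and 3874, with sample 1 lowest in each and below its limit. Those of Cdt1 read 958, 1666 and 3559 and 43.7, 93.0 and 25.8, of which the dimmer had no order. For Mcm7 the 3 other probe sets read 598, 1386 and 2028, then 986, 2061 and 1812, then 722, 583 and 1700. The last of them was lowest in sample 4, which is against the other Mcm7 probe sets. The second probe set of Rrm1 read 1088, 1084 and 867 and that of Prim1 810, 2201 and 1915, so Rrm1 rests on 1 probe set for its difference while Prim1 does not.

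**Figure D4:**
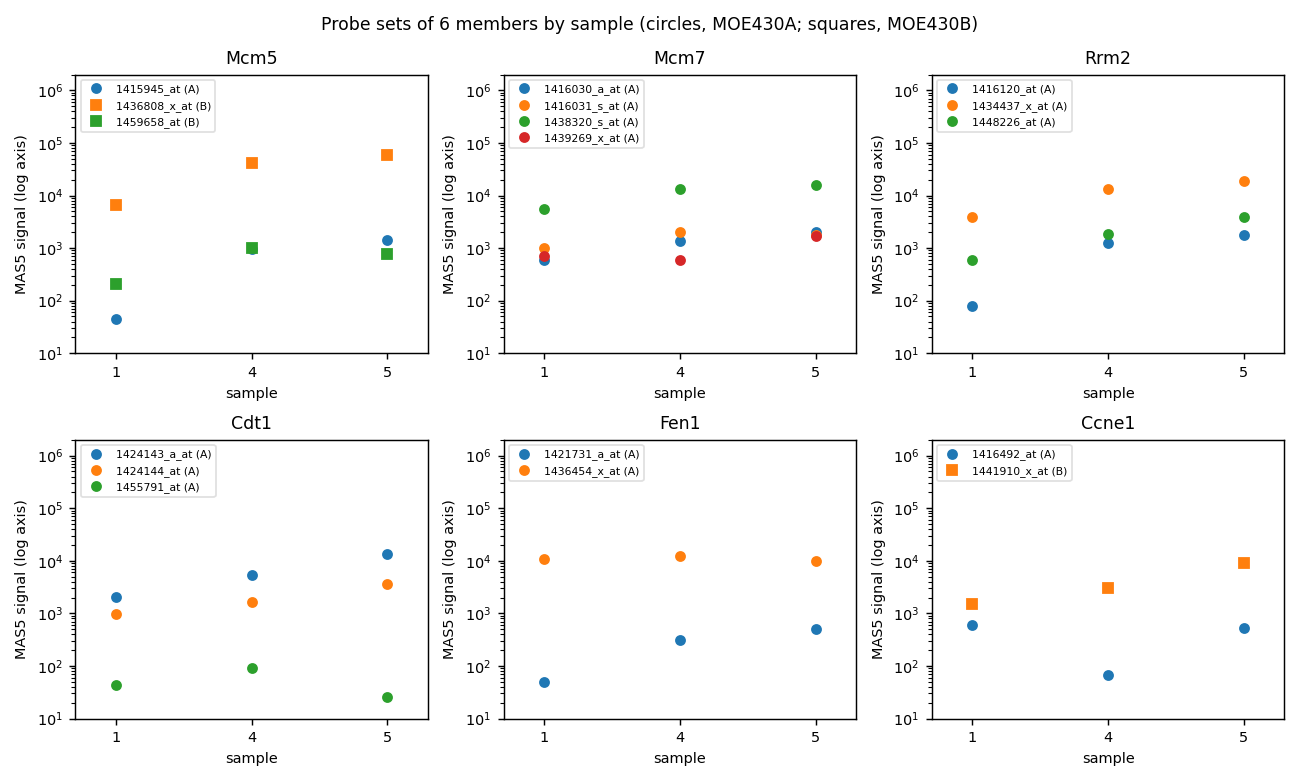
MAS5 signal on a log axis of every probe set of Mcm5, Mcm7, Rrm2, Cdt1, Fen1 and Ccne1 in samples 1, 4 and 5, 1 colour per probe set, with circles for MOE430A and squares for MOE430B. All probe sets of Mcm5 and Rrm2 are lowest in sample 1, whereas the brighter Fen1 probe set is level between 10101 and 12311 while the dimmer ranges from 49.8 to 496.

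On MOE430B the members were mostly below background. Of 15 measured, 1 was detected (6.67%, against 12.1% of all genes), Mcm5, and 4 were kept by their mean (17.0%): Mcm5, Rfc2, Orc1 and Gins2. Sample 1 gave the lowest signal for 6 of 15 (40.0%, against 33.5% of all genes), so the order seen on MOE430A was not seen over all members there. The 7 members with sample 1 highest (35.3% of all genes), Mcm6, Mcm10, Prim2, Cdc45, Gins1, Rrm1 and Tyms, were below the limit in every sample, Rrm1 for example at 1088, 76.0 and 374. Of the 4 kept members, Mcm5, Rfc2 and Gins2 had sample 1 lowest.

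Some other genes of the same pathways lay 2-fold or more lower in sample 1, and none kept lay 2-fold or more higher. Of 36 further replication fork and origin genes, 27 were measured on MOE430A, 10 detected (29.5% of all genes) and 17 kept (37.2%). Sample 1 lay 2-fold or more lower for 5 of the 17, against 5.47% of all genes kept. These were Pclaf, Top2a, Asf1b, Dbf4 and Pole2. Sample 1 lay 2-fold or more higher for 0, against 5.78%, and its median deviation was -0.49, against 0.01. It gave the lowest signal for 18 of 27, against 30.4% of all genes. Pclaf, a factor that binds the clamp, read 2004, 9561 and 7541, with sample 1 4.24-fold lower. Top2a, the topoisomerase that untangles sister DNA, read 1748, 7948 and 5639, with sample 1 3.83-fold lower. Both were highest in sample 4, as Prim1 and Tk1 were. On MOE430B 20 of the 36 were measured, 2 detected and 3 kept, with 0 of the 3 lying 2-fold or more apart in sample 1.

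The further genes of nucleotide synthesis and salvage showed no 2-fold difference in sample 1 on MOE430A. Of 32 listed, 26 were measured, 17 detected (29.5% of all genes) and 18 kept (37.2%). Of these 0 were lower, against 5.47% of all genes kept, and 0 higher, against 5.78%, with a median deviation of -0.34. Ctps, CTP synthase, read 7136, 9394 and 18125, with sample 1 1.83-fold lower. Nme1, a nucleoside diphosphate kinase, read 13999, 11584 and 5910, with sample 1 highest and 1.69-fold above the others. On MOE430B 4 of 13 measured were kept, all detected. Of the 4, 2 lay 2-fold or more lower in sample 1, against 5.19% of all genes kept. These were the purine synthesis genes Atic, at 17638, 26959 and 52320, and Gmps, at 5080, 8827 and 13132. Both were highest in sample 5, like the helicase genes, with sample 1 lower by 2.13-fold and 2.12-fold. How this list differs from the members in sample 1 was not tested.

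Of the 10 E2F and DP factors that bind the E2F word, 7 were measured on MOE430A and 2 detected (29.5% of all genes). E2f1, an activator of replication genes, read 3471, 3931 and 2834 and differed by 1.04-fold in sample 1. Tfdp1, the partner that E2F proteins need to bind DNA, read 1755, 2048 and 4094, with sample 1 1.65-fold lower. Of the 4 kept, 1 was counted as 2-fold or more lower in sample 1, against 5.47% of all genes kept. It was E2f8, a repressor of E2F targets, at 669, 1205 and 4215. Its signals in samples 1 and 4 both lay below their limits, so this fold is no bound. Between samples 4 and 5 E2f1 was the higher in sample 4 and Tfdp1 and E2f8 in sample 5. On MOE430B 8 of the 10 were measured, 2 detected (E2f5 and Tfdp2) and 3 kept, with 0 of the 3 lying 2-fold or more apart in sample 1.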

How the data were processed

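RNA of 3 samples was measured on 6 arrays, 3 of each design. The authors deposited signal intensities of each probe set, made with MAS5 per the submitters' processing notes (version and settings not given in the sources used here). These are linear, and every array was scaled separately, to a mean of 1500.2 to 1500.8 after trimming 2% at each end. The deposited run settings (fluidics station and module, other text per the file headers) were used only as a check. The arrays carry no counts, so their number limits precision.

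The designs were analysed apart, with Python 3.11.15, numpy 2.4.6 and pandas 2.3.3. Symbols came from the platform tables, updated to RefSeq GRCm38.p6. On MOE430A 20393 of 22690 probe sets named 1 gene, 691 several and 1606 none, and on MOE430B 14674 of 22575 did, 245 several and 7656 none. Probe sets with several genes or none were left out. The background list held 111 genes, 100 of them measured (123 probe sets on MOE430A, 13 on MOE430B), and 4 were themselves detected: Hcrt, Lor, Oxt and Apoh. Differences are log2 signal, after raising signals to the limit, of 1 sample minus the mean of the other 2. A 2-fold size was counted, since 1 sample against 2 of the same group allows no test. Promoter windows came from the RefSeq table, which matched 36 members. The counting was tested on simulated data. Members and lists were chosen with earlier results of these data known. Values in every sample are given for the members at either end of each role, and further members are given to complete a role. For members measured on both designs, or with probe sets that disagree, only some of the further probe sets are given. Of the other lists, the genes named are detected ones with large deviations in sample 1, with E2f8, Asf1b, Dbf4 and Pole2 named for small counts once their values were known. The alternatives were the limit's percentile, arrays and probe sets needed, quantile normalization, a pseudocount of 64, the filter, a 1.5-fold size and leaving out each sample.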

Additional observations from a re-analysis of the deposited data

How the results depend on the processing

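The count of members with sample 1 lowest held at 38 to 40 of 42 under 3 alternatives chosen after seeing the data: quantile normalization, without _s_at and _x_at probe sets, and all probe sets averaged. Detected members on MOE430A went from 13 (29.5% of all genes) to 21 with 2 of 3 arrays (36.8%), 3 where most of its probe sets had to pass (17.3%) and 7 without _s_at and _x_at probe sets (25.0%), and from 13 to 21 with 1 sample left out, the 21 without sample 1. Members lower in sample 1 went from 13 of 21 to 8 of 16 without _s_at and _x_at probe sets, 8 of 17 with all probe sets averaged, and 12 to 13 with sample 4 or 5 left out. A setting with no filter and signals not raised to the limit, chosen after seeing the data, covered all 42 members. The counts lower were then 27 in sample 1, 1 in sample 4 and 1 in sample 5, and the counts higher were 2, 7 and 18. Shares over all genes were not computed for counts lower or higher under any alternative. These counts therefore cannot be set against a background. The median deviation of sample 1 was -0.31 with no filter, where signals of 21 dim members are raised to the limit, and -1.14 to -1.03 with a sample left out. On MOE430B the count lower in sample 1 lay between 0 and 4 under the alternatives, against 1. Members higher in sample 4 went from 3 to 1 with all probe sets averaged, 6 at 1.5-fold and 0 to 12 with a sample left out, and those lower from 0 to 0 to 3. The median of sample 4 reversed from 0.37 to -0.15 without sample 1, and ranged to 1.03 without sample 5. Members higher in sample 5 went from 7 to 4 among members detected on 3 of 3 arrays, 4 with all probe sets averaged, 11 at 1.5-fold and 3 to 13 with a sample left out, 3 without sample 1 and 13 without sample 4. The median of sample 5 stayed above 0, from 0.15 to 1.14, and 0 members were lower in sample 5 with any sample left out. Other settings left these counts within 1.5 times. Beyond the constructions named, the cause was not tested. No paired analysis was possible because the numbers shared by the designs mark the same sample on 2 array designs, and no result comes from a test. A member below the limit was not shown to be absent, the MOE430B limit rests on 13 probe sets, and 3 samples of 1 group limit every statement about samples.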
